A study of Mus musculus with 24 samples.

Results

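The 10 genes Mstn, Acvr2a, Acvr2b, Acvr1b, Tgfbr1, Fst, Fstl3, Smad2, Smad3 and Smad7 were followed through the skeletal muscle and heart of mice with pancreatic cancer. They were chosen by name as the core of myostatin and activin signalling, whatever their result, and all 10 were found by symbol among the 14537 genes of the count tables. In muscle of mice with the tumour, Mstn, Acvr1b, Tgfbr1 and Smad7 were higher and Fst and Smad3 lower than in muscle of control mice. In muscle of tumour-bearing mice given chemotherapy, each of these 6 genes differed in the opposite direction from muscle of tumour-bearing mice given vehicle. The share of all genes that passed was of the same order, 49.7% and 49.8% in the 2 comparisons. Both use the same libraries of mice given vehicle, so they are not independent. The calls of Fst and Smad7 were lost in some fits that left out 1 library. In heart, no member passed the edgeR test, while DESeq2 called 1 member in each comparison, beside 1056 to 2499 of the 13846 genes tested.

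Myostatin, the product of Mstn, is a secreted growth factor of the TGF-beta family that skeletal muscle makes and that restrains muscle mass. Like the activins, it binds a type II receptor, ACVR2B or ACVR2A, which recruits and phosphorylates a type I receptor, ACVR1B (also called ALK4) or TGFBR1 (ALK5). The type I receptor phosphorylates SMAD2 and SMAD3, which join SMAD4 and act on transcription in the nucleus. Follistatin (Fst) and follistatin-like 3 (Fstl3) are secreted proteins that bind the ligands and keep them from the receptors, and SMAD7 is an inhibitory Smad that blocks the activated type I receptor. Cachexia is the wasting of muscle and fat that accompanies cancer, and this pathway is known as a brake on muscle growth.

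All mice were male and of strain C57BL/6J, and ages are not given in the labels. KPC+GnP mice carried orthotopic grafts, that is, KPC32908 cells, a mouse pancreatic cancer line, placed in the pancreas, and received gemcitabine, a nucleoside analogue, with nab-paclitaxel, a form of the microtubule drug paclitaxel bound to albumin. KPC mice carried the same cells and received vehicle. Control mice had sham surgery and are labelled as untreated, so a difference between KPC and control mice covers the tumour and the vehicle together. Control samples also carry a label with KPC32908 in it, although they are described as sham-operated, and they were taken here as controls without tumour cells. The muscle count column of animal 141 has 1 digit more than the animal's number in its name and was assigned by that number. Each group had 4 libraries per tissue, 24 libraries from 16 numbered animals, of which 8 gave both tissues. Values of a group are given below in the order of its libraries 1 to 4, as read counts scaled to a common effective total (CPM). The effective total is a library's count over the tested genes multiplied by its TMM scaling factor, not the library total alone.

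Promoters from RefSeq were at hand for 7 members, and 3 are shown because the results turn on these genes: the ligand Mstn and the type I receptor Acvr1b, higher in KPC muscle, and the signal transducer Smad3, lower there. Each run is the 250 bases before the RefSeq start on the gene's own strand in GRCm38.p6, at chr1:53061390-53061639 (plus strand) for Mstn, chr15:101173822-101174071 (plus strand) for Acvr1b and chr9:63757995-63758244 (minus strand) for Smad3. Capitals mark matches, on either strand, to the short motifs listed after them.
Mstn: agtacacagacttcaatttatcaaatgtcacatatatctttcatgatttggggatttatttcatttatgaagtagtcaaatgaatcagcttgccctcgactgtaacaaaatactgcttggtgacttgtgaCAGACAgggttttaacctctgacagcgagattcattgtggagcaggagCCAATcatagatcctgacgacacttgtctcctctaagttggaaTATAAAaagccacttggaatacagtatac
Acvr1b: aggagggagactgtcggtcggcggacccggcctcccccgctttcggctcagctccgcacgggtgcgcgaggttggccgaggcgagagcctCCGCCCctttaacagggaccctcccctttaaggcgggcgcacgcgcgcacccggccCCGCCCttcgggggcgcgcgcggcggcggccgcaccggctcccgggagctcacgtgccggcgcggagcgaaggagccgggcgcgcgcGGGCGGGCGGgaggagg
Smad3: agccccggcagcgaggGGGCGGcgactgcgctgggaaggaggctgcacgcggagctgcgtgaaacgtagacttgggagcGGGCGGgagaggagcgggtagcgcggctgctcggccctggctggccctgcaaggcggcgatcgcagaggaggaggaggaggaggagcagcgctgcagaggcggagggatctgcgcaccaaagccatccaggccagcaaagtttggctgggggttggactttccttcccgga

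The Mstn stretch, with 38.4% G and C, held the TATA box letters TATAAA 24 to 29 bases before the start, CCAAT at 68 to 72 bases and the Smad letters CAGACA at 115 to 120 bases. The Acvr1b and Smad3 stretches, with 78.8% and 69.2% G and C, held neither TATAAA nor CCAAT but the GC box letters GGGCGG, at 4 places in Acvr1b (2 of them overlapping) and 2 in Smad3. Of all 32851 promoter stretches of this length, with a median of 52.4% G and C, 12.4% held TATAAA, 33.8% CCAAT, 17.1% CAGACA and 32.7% GGGCGG. Among the 7 members CAGACA was found in 3 (Mstn, Fstl3 and the second start of Tgfbr1) and GGGCGG in 6. The forkhead letters GTAAACA, held by 3.17% of all stretches, the STAT letters TTCNNNGAA (7.02%), the C/EBP letters TTGCNNAA (9.56%) and the E-box CAGCTG (13% of all stretches) were in none of the members' stretches. AGAACA, 1 arm of a glucocorticoid receptor site and held by 16.1% of all stretches, was in that of Fstl3 alone.

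Depth was 18285396 to 27382432 counts per library in muscle and 11020931 to 20969551 in heart. The labels of the tissues matched their markers, since the summed level of 8 skeletal muscle markers was 118699 to 201947 CPM over the muscle libraries and 850 to 2855 CPM over the heart libraries. KPC muscle library 1, from animal 141, stood apart from the rest of its group. Over 12760 genes its root mean square log2 distance from the control mean was 0.556, against 0.991 to 1.20 in the other 3 KPC libraries, 0.298 to 0.464 in KPC+GnP muscle and 0.232 to 0.293 in the controls themselves. The heart of the same animal was also the nearest to controls among KPC hearts, at 0.518 against 0.742 to 1.18. Results that rest on this library are given with and without it. CPM are scaled within each tissue, and in whole tissue fewer cells of a type and less RNA per cell cannot be told apart.

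In muscle, KPC against control mice, 6 of the 10 members passed an edgeR quasi-likelihood test at a Benjamini-Hochberg adjusted p under 0.05. The background was of the same order, since 6336 of 12760 genes passed (49.7%). Among the members 4 were higher, against 27.5% of all genes, and 2 lower, against 22.1% of all genes. The 4 libraries of one group lay wholly above or below those of the other for 4 members (Mstn, Acvr1b, Tgfbr1 and Smad3), against 37.2% of all genes. The median log2 difference was 0.19 over the members and -0.00263 over all genes. Without KPC library 1 the count was 7 members, with Acvr2a added at a log2 difference of 0.58 and an edgeR adjusted p of 0.0191. In that fit 7993 of all genes passed, more than the 6336 with the library.

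**Figure D1:**
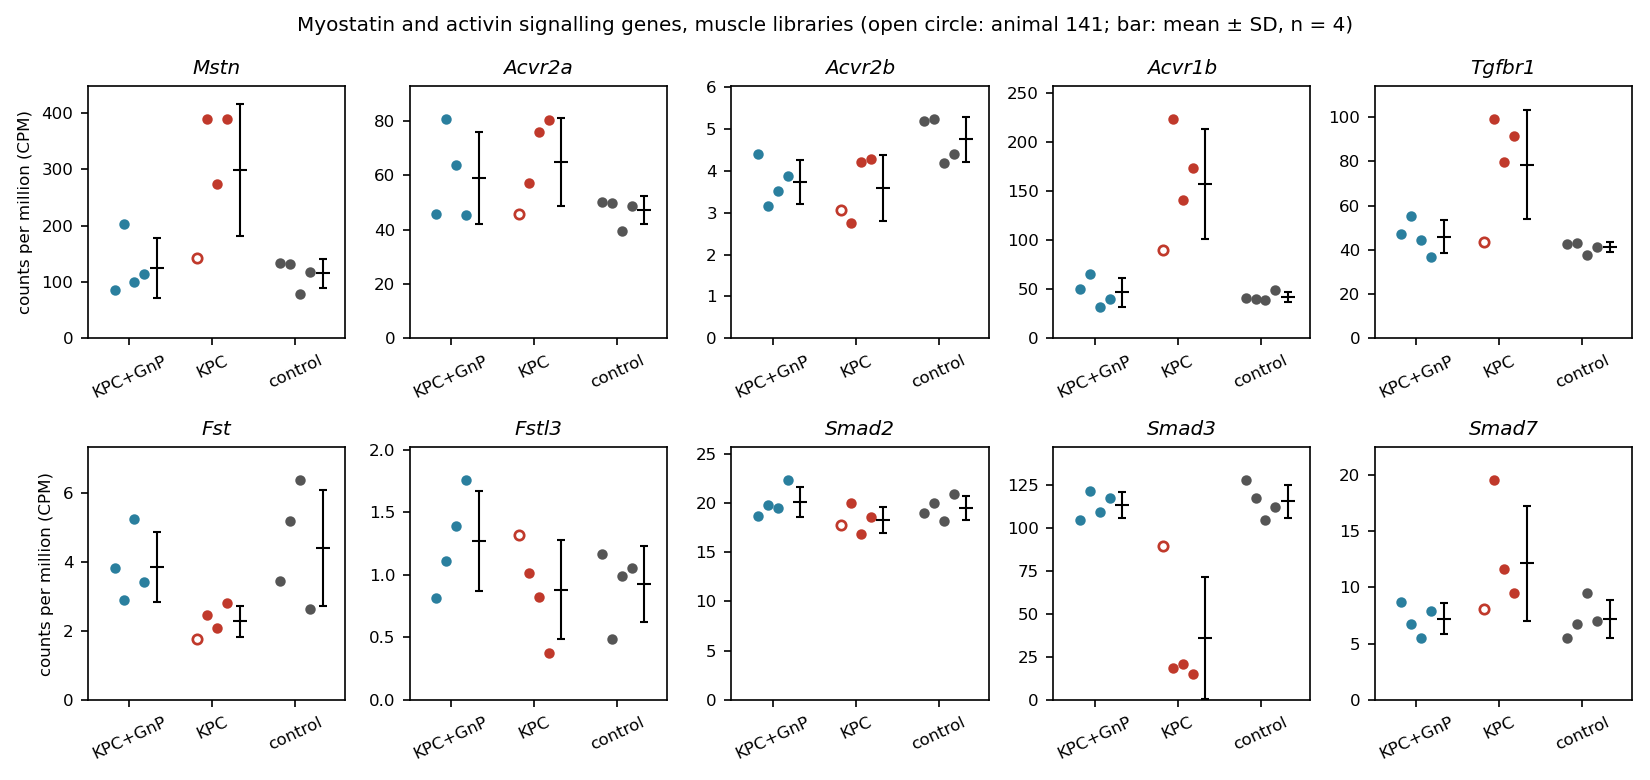
CPM of the 10 genes in each muscle library of the KPC+GnP, KPC and control groups, left to right, with the mean and SD of 4 libraries beside the points; the open circle is the library of animal 141. KPC libraries sit at 89.6 to 223 CPM for Acvr1b, above all other libraries, and 3 of the 4 KPC libraries sit at 14.8 to 20.8 CPM for Smad3, far below the rest.

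The ligand gene Mstn (GRCm38, chromosome 1, 53061640 to 53068079, plus strand) had 143, 389.7, 273 and 389 CPM in KPC muscle, against 133, 133, 77.8 and 118 CPM in control muscle. All KPC libraries lay above all controls, library 1 by the narrowest margin. The fitted level was 2.59-fold higher in KPC muscle, a log2 difference of 1.37 (SE 0.33, edgeR adjusted p = 0.0049). Without KPC library 1 the log2 difference was 1.58.

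Of the ligand-binding antagonists, Fst (chromosome 13, 114452290 to 114458951, minus strand) had 1.75, 2.45, 2.09 and 2.81 CPM in KPC muscle, against 3.46, 5.19, 6.37 and 2.63 CPM in control muscle. The KPC libraries were low as a group, but the highest of them exceeded the lowest control. Fst fell in KPC muscle by 0.95 (log2, SE 0.29, edgeR adjusted p = 0.0156). This call rested on control library 3, without which the log2 difference was -0.71 and the adjusted p 0.0596. Fstl3 (chromosome 10, 79777272 to 79782630, plus strand), at 9 to 39 counts per muscle library, had 0.372 to 1.32 CPM in KPC muscle and 0.485 to 1.17 CPM in control muscle, ranges that overlap almost wholly. Its log2 difference was -0.08, with a 95% interval of -0.93 to 0.78. Exons of Fst overlap the antisense gene Gm47040 and those of Fstl3 the gene Prss57 on the other strand. Whether counting used strand is not given in the sources used here, so their reads may not be told apart.

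The type I receptor gene Acvr1b (chromosome 15, 101174067 to 101213684, plus strand) had the largest log2 difference of the 10 members with all libraries in the fit, but without KPC library 1 that of Smad3 (-2.69) was larger than its 2.06. It had 89.6, 223, 141 and 173 CPM in KPC muscle, against 41.0, 39.8, 38.7 and 49.6 CPM in control muscle. Every KPC library lay far above every control, library 1 included. The level was 3.71-fold higher in KPC muscle, a log2 difference of 1.89 (SE 0.27, edgeR adjusted p = 0.000409). The other type I receptor gene, Tgfbr1 (chromosome 4, 47353222 to 47414931, plus strand), had 43.6, 99.2, 79.7 and 91.5 CPM in KPC muscle, against 42.7, 43.2, 37.8 and 41.4 CPM in control muscle. Here KPC library 1 sat just above the highest control and the other 3 well above. Tgfbr1 rose by a log2 difference of 0.93 (SE 0.21, edgeR adjusted p = 0.00341), and by 1.11 without KPC library 1.

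Neither type II receptor gene passed the edgeR test in KPC muscle with all libraries and TMM scaling. Acvr2a (chromosome 2, 48814109 to 48903269, plus strand) had 45.8, 57.0, 75.8 and 80.5 CPM in KPC muscle, against 50.2, 50.01, 39.4 and 48.8 CPM in control muscle. KPC library 1 lay among the controls and the other 3 above them. The log2 difference was 0.46, with a 95% interval of 0.01 to 0.91 (edgeR adjusted p = 0.084). Exons of Acvr2a overlap those of Orc4 on the opposite strand. Acvr2b (chromosome 9, 119402118 to 119434995, plus strand) had 2.77 to 4.30 CPM in KPC muscle and 4.20 to 5.24 CPM in control muscle, which overlap at the margin. Its log2 difference was -0.41, with an interval of -0.80 to -0.01 (edgeR adjusted p = 0.0841). It passed with library totals (-0.57, edgeR adjusted p = 0.0237), where the median of all genes moved by -0.16, and with limma on log2 FPKM (-0.48, adjusted p = 0.0356).

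Of the genes for the signal transducers, Smad3 (chromosome 9, 63646767 to 63757994, minus strand) had 89.3, 18.6, 20.8 and 14.8 CPM in KPC muscle, against 128, 118, 105 and 112 CPM in control muscle. KPC libraries 2 to 4 held a small part of the control level, while library 1 lay just below the lowest control. Smad3 fell by 1.69 (log2, SE 0.45, edgeR adjusted p = 0.00882), 3.22-fold lower in KPC muscle. Without KPC library 1 it fell by 2.69 (edgeR adjusted p = 1.23e-08), so the size of the difference depends on this library and the direction does not. Smad2 (chromosome 18, 76241580 to 76310963, plus strand) had 16.9 to 19.99 CPM in KPC muscle and 18.1 to 20.9 CPM in control muscle. Its log2 difference was -0.09, with a 95% interval of -0.30 to 0.12.

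The inhibitory gene Smad7 (chromosome 18, 75367529 to 75395935, plus strand) had 8.07, 19.5, 11.6 and 9.46 CPM in KPC muscle, against 5.49, 6.75, 9.49 and 7.04 CPM in control muscle. Library 2 was the highest, and KPC libraries 1 and 4 did not exceed the highest control. Smad7 rose by a log2 difference of 0.76 (SE 0.26, edgeR adjusted p = 0.0299). The call was lost without control library 1, 2 or 4 or KPC library 2 or 3, with log2 differences of 0.44 to 0.79 and adjusted p of 0.0503 to 0.107. It was also lost with library totals (0.61, edgeR adjusted p = 0.0827), limma on log2 FPKM (0.63, adjusted p = 0.0563) and only these groups fitted (0.75, edgeR adjusted p = 0.0592).

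In muscle, KPC+GnP against KPC mice, 6 of 10 members passed the same test, against 49.8% of all genes. Of these 2 were higher (23.1% of all genes) and 4 lower (26.7%). The groups did not overlap for 3 members (Acvr1b, Fst and Smad3), against 33.6% of all genes. The members that passed were the 6 that passed between KPC and control muscle, each with the opposite sign, but both comparisons use the same KPC libraries, so they are not independent. The median log2 difference was -0.04 over the members and 0.02 over all genes. Without KPC library 1 the count was 5 members, as Fst no longer passed. In that fit 8056 of all genes passed, more than the 6357 with the library.

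Mstn had 85.4, 204, 100.5 and 113 CPM in KPC+GnP muscle, against the 143 to 389.7 CPM of KPC muscle. KPC+GnP library 2 lay within the KPC range and the other 3 below it. Mstn fell by 1.25 (log2, SE 0.33, edgeR adjusted p = 0.00803). Fst had 3.83, 2.90, 5.25 and 3.42 CPM in KPC+GnP muscle, all above the 1.75 to 2.81 CPM of KPC muscle. The margin was small, and the log2 difference of 0.75 (SE 0.29, edgeR adjusted p = 0.0435) lost its call in 7 of 12 fits that left out 1 library: KPC library 1, 2 or 3, KPC+GnP library 1, 3 or 4 or control library 2. In these fits the log2 difference was 0.56 to 0.81 and the adjusted p up to 0.142. Fstl3 had 0.818 to 1.75 CPM in KPC+GnP muscle, against 0.372 to 1.32 CPM in KPC muscle, a log2 difference of 0.53 with a 95% interval of -0.31 to 1.37.

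Acvr1b had 50.7, 65.9, 31.7 and 40.1 CPM in KPC+GnP muscle, all below the 89.6 to 223 CPM of KPC muscle. It fell by 1.73 (log2, SE 0.26, edgeR adjusted p = 0.000546). Tgfbr1 had 47.3, 55.3, 44.4 and 37.0 CPM in KPC+GnP muscle, which overlap KPC muscle through KPC library 1 alone. It fell by 0.77 (SE 0.21, edgeR adjusted p = 0.00907), but by 0.53 with an adjusted p of 0.0644 when libraries were scaled by their totals. Acvr2a had 45.6 to 80.8 CPM in KPC+GnP muscle, nearly the range of KPC muscle, and a log2 difference of -0.13 (95% interval -0.59 to 0.32). Acvr2b had 3.16 to 4.39 CPM in KPC+GnP muscle and a log2 difference of 0.06 (95% interval -0.34 to 0.46).

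Smad3 had 105, 122, 109 and 117 CPM in KPC+GnP muscle, above every KPC library. It was higher in KPC+GnP than in KPC muscle by a log2 difference of 1.66 (SE 0.45, edgeR adjusted p = 0.00962), and by 2.65 without KPC library 1. Smad7 had 8.74, 6.79, 5.53 and 7.87 CPM in KPC+GnP muscle, 1 library of which lay within the KPC range. It fell by 0.75 (SE 0.26, edgeR adjusted p = 0.0313), a call lost without KPC library 2 or 3 or KPC+GnP library 2, 3 or 4, with log2 differences of -0.80 to -0.43. It was also lost with library totals (-0.52, edgeR adjusted p = 0.126), limma on log2 FPKM (-0.65, adjusted p = 0.0522) and only these groups fitted (-0.74, edgeR adjusted p = 0.0533). Smad2 had 18.7 to 22.3 CPM in KPC+GnP muscle, and its log2 difference was 0.13 (95% interval -0.08 to 0.34). With library totals as the scale its log2 difference was 0.38 and passed the test (edgeR adjusted p = 0.00809), while the median of all genes moved by 0.25 in that scaling.

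In muscle, KPC+GnP against control mice, no member passed and no gene did (0% of 12760). At an unadjusted p under 0.05 there were 413 genes and 0 members, and DESeq2 called 1 gene, no member. No member had groups that did not overlap, against 4.40% of all genes. The members' log2 differences lay between -0.35 (Acvr2b) and 0.45 (Fstl3), with 95% intervals of -0.75 to 0.05 for Acvr2b and -0.39 to 1.29 for Fstl3. For Mstn it was 0.12, with an interval of -0.58 to 0.83, and for Acvr1b 0.16, with an interval of -0.40 to 0.72. That of Smad3 was -0.03, with a wide interval of -0.98 to 0.92. All of these intervals include 0, and the absence of a call does not show equal levels.

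**Figure D2:**
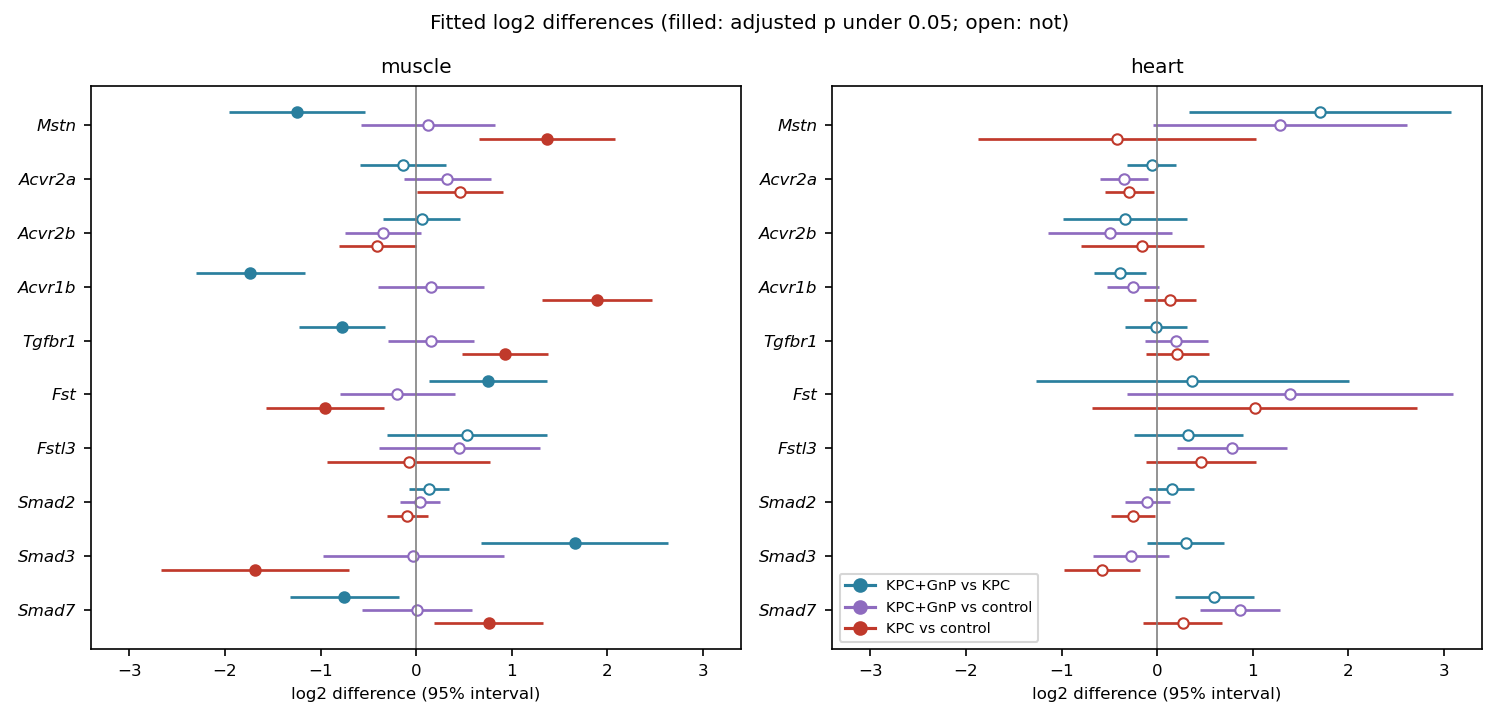
Fitted log2 differences of the 10 genes with 95% intervals, in muscle (left) and heart (right), for KPC+GnP vs KPC, KPC+GnP vs control and KPC vs control; filled points passed an adjusted p of 0.05. In muscle, 6 genes have filled points on opposite sides of 0 for KPC+GnP vs KPC and KPC vs control, and in heart no point is filled.

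Per gene length, as deposited in FPKM (fragments scaled to gene length and library total), the order of the members within muscle could be read. In control muscle Mstn was highest at 56.8 ± 13.4 FPKM (SD, n = 4), followed without overlap by Smad3 at 29.9 ± 2.75, Acvr1b at 17.0 ± 2.11 and Acvr2a at 10.9 ± 1.33 FPKM. Acvr2a overlapped Tgfbr1 (9.61 ± 0.686 FPKM), and Fstl3 was lowest at 0.677 ± 0.202 FPKM. In KPC muscle the order was led by Mstn at 139.5 ± 53.0 FPKM and Acvr1b at 60.0 ± 20.7 FPKM, which overlapped, and the mean of Smad3 was 9.04 ± 9.20 FPKM. Smad3 overlapped Acvr2a there, and in KPC library 1, at 22.8 FPKM, it lay above Acvr2a (10.5) and Tgfbr1 (10.01). In KPC+GnP muscle Mstn (60.3 ± 24.3 FPKM), Smad3 (28.7 ± 1.59) and Acvr1b (18.5 ± 5.52) led, with no overlap between Mstn and Smad3 or between Smad3 and Acvr1b.

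Ratios within a library put the members side by side, and no test was run on them. Mstn over its antagonist Fst was 20.1 to 72.8 per length in KPC+GnP muscle, 83.2 to 164 in KPC muscle and 12.9 to 46.4 in control muscle. All KPC libraries lay above all others, library 1 lowest among them. Between the type I receptors, Acvr1b over Tgfbr1 was 1.24 to 2.06 in KPC+GnP muscle, 3.06 to 3.89 in KPC muscle and 1.60 to 2.07 in control muscle. KPC library 1, at 3.55, lay between the other KPC libraries in this ratio. Smad3 over Smad2 was 9.44 to 11.03 in KPC+GnP muscle, 1.43 to 9.01 in KPC muscle, where library 1 was the highest, and 9.59 to 12.05 in control muscle. Between the type II receptors, Acvr2a over Acvr2b was 3.07 to 7.47 in KPC+GnP, 4.36 to 6.00 in KPC and 2.76 to 3.26 in control muscle. In this ratio KPC+GnP muscle did not return to the control range, and its highest library exceeded every KPC library.

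**Figure D3:**
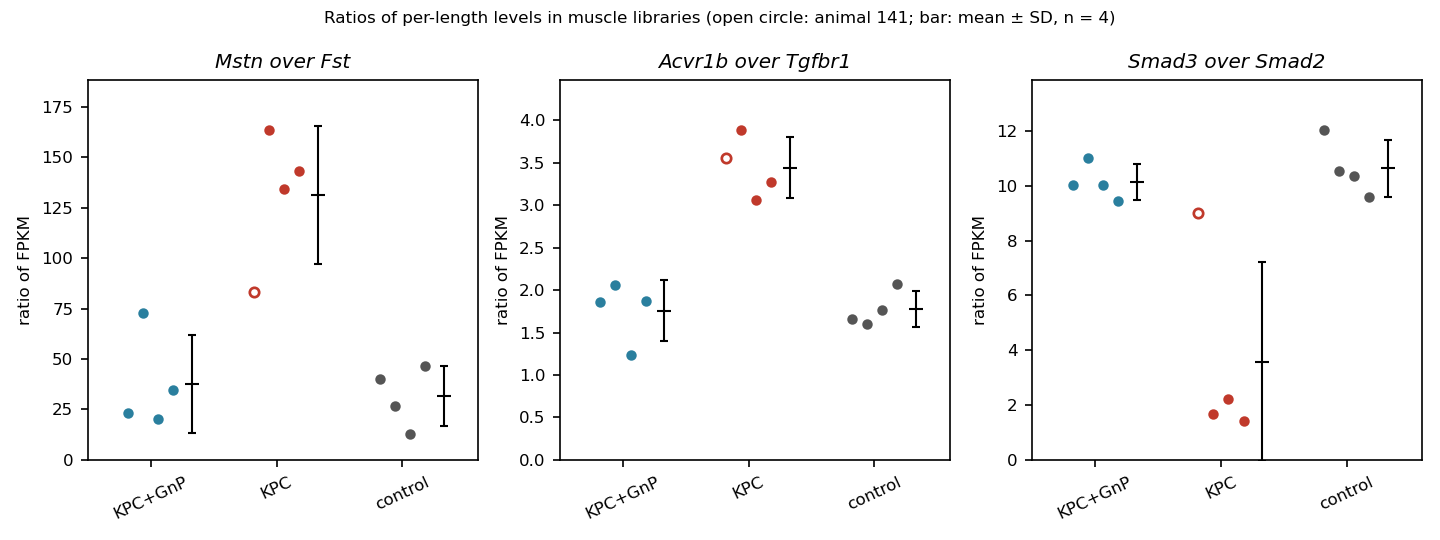
Ratios of per-length levels (FPKM) in each muscle library of the KPC+GnP, KPC and control groups, with the mean and SD of 4 libraries; the open circle is the library of animal 141. Mstn over Fst is 83.2 to 164 in KPC libraries and at most 72.8 elsewhere, while Smad3 over Smad2 is low in 3 KPC libraries and 9.01 in that of animal 141.

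In heart no member passed the edgeR test in any of the 3 comparisons. Among all 13846 genes tested, 9.34% passed for KPC against control, 1.55% for KPC+GnP against KPC and 1.23% for KPC+GnP against control. At an unadjusted p under 0.05 there were 3 members in each comparison, beside 4240 of all genes for KPC against control, 2886 for KPC+GnP against KPC and 2753 for KPC+GnP against control. For KPC+GnP against KPC the 3 were Acvr1b, Smad7 and Mstn, or 2 without Mstn, whose limit is given below. DESeq2 called 1 member in each comparison, beside 2499, 1136 and 1056 genes in the same order. Members whose groups did not overlap numbered 0 for KPC against control (14.4% of all genes), 3 for KPC+GnP against KPC (Acvr1b, Smad7 and Mstn, against 8.10% of all genes; 2 without Mstn, which passed the filter on low counts only through the KPC+GnP hearts) and 1 for KPC+GnP against control (Smad7, against 15.9%).

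The nearest to a call was Smad7, with 50.9, 38.4, 31.8 and 48.6 CPM in KPC+GnP hearts, 30.2, 22.0, 30.0 and 29.7 CPM in KPC hearts and 20.2, 30.2, 17.9 and 24.7 CPM in control hearts. All KPC+GnP hearts lay above all others. Against control the log2 difference was 0.87 (SE 0.19, edgeR adjusted p = 0.0504), and DESeq2 gave 0.87 with an adjusted p of 0.00177. Over the alternatives this value passed with DESeq2, with DESeq2 size factors, with library totals (log2 difference 1.02, edgeR adjusted p = 0.0237), with only these groups fitted, and without heart KPC library 2 or 4. It did not pass with no filter, with limma on log2 FPKM or in the other 10 of 12 fits that left out 1 library, where the adjusted p reached 0.165. Against KPC hearts it was 0.60 (95% interval 0.18 to 1.01, edgeR adjusted p = 0.114).

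Smad3 had 20.4, 27.9, 17.4 and 17.5 CPM in KPC hearts, against 25.5, 40.2, 29.0 and 29.5 CPM in control hearts. The groups overlapped through KPC library 2. The log2 difference was -0.58 (95% interval -0.98 to -0.17), with an edgeR adjusted p of 0.0663 and a DESeq2 adjusted p of 0.0332. Without heart KPC library 2 it was -0.72 (edgeR adjusted p = 0.0457). Acvr1b had 14.2, 15.3, 18.1 and 18.5 CPM in KPC+GnP hearts, all below the 18.7 to 24.8 CPM of KPC hearts. Its log2 difference there was -0.38 (95% interval -0.66 to -0.11, edgeR adjusted p = 0.122), and DESeq2 gave -0.40 with an adjusted p of 0.0481. Acvr1b in KPC hearts lay near the 17.3 to 21.2 CPM of control hearts, with a log2 difference of 0.13 (-0.14 to 0.40).

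Mstn was scarce in heart, at 1 to 22 counts per library. It had 1.14, 0.718, 0.811 and 0.715 CPM in KPC+GnP hearts, 0.178, 0.107, 0.238 and 0.534 CPM in KPC hearts and 0.220, 0.837, 0.0725 and 0.224 CPM in control hearts. The KPC+GnP hearts lay above all KPC hearts, while 1 control lay among them. Since it passed the filter only through the KPC+GnP hearts, its log2 difference of 1.70 against KPC hearts is given as a description. Skeletal muscle markers summed to 850 to 1919 CPM in KPC+GnP hearts, 993 to 1919 CPM in KPC hearts and 1749 to 2855 CPM in control hearts, and their part in the Mstn values was not tested. Fst varied widely within groups, at 1.07 to 4.68 CPM in KPC+GnP hearts, 0.476 to 5.94 CPM in KPC hearts and 0.512 to 2.69 CPM in control hearts. Fstl3 had 5.80 to 12.3 CPM in KPC+GnP hearts, 5.01 to 10.1 CPM in KPC hearts and 4.03 to 6.66 CPM in control hearts. These ranges overlap in every pair of groups.

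Of the other receptors, Acvr2a had 24.1 to 32.3 CPM in KPC+GnP hearts, 24.1 to 32.1 CPM in KPC hearts and 31.5 to 36.8 CPM in control hearts. The lowest control lay just under the highest heart of each other group. The log2 difference between KPC and control hearts was -0.29 (95% interval -0.55 to -0.04, edgeR adjusted p = 0.12). Without heart KPC library 4 it was -0.36 and passed (edgeR adjusted p = 0.0468). Between KPC+GnP and control hearts the log2 difference of Acvr2a was -0.35 (95% interval -0.60 to -0.09, edgeR adjusted p = 0.139). Acvr2b had 1.04 to 1.79 CPM in KPC+GnP hearts, 1.29 to 2.27 CPM in KPC hearts and 1.45 to 2.24 CPM in control hearts, which overlap. Tgfbr1 had 26.6 to 39.9 CPM in KPC+GnP hearts, 28.9 to 39.98 CPM in KPC hearts and 25.5 to 31.9 CPM in control hearts, also with overlap. Smad2 had 32.8 to 35.9 CPM in KPC+GnP hearts, 28.5 to 33.2 CPM in KPC hearts and 30.3 to 41.6 CPM in control hearts.

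**Figure D4:**
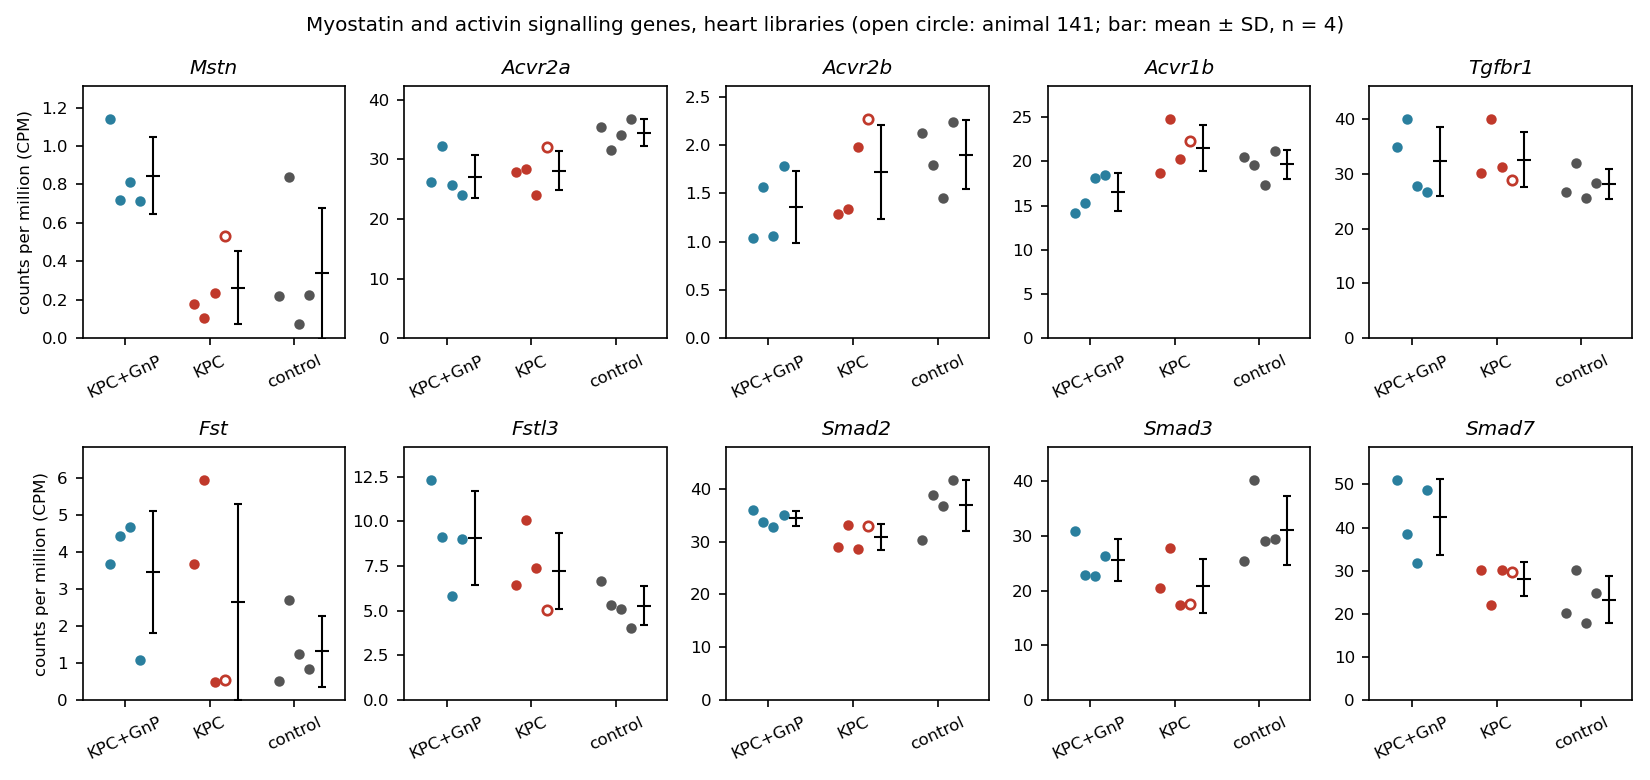
CPM of the 10 genes in each heart library of the KPC+GnP, KPC and control groups, left to right, with the mean and SD of 4 libraries; the open circle is the heart of animal 141. Smad7 is higher in all KPC+GnP hearts (31.8 to 50.9 CPM) than in any other heart, and Mstn stays at or below 1.14 CPM.

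Muscle was set against heart in control mice in one fit of all 24 libraries, where 9 of 10 members passed, against 59.5% of 14509 genes. Mstn was higher in muscle by a log2 difference of 9.10 (SE 0.49), the largest difference of the 10 members. Acvr2a (1.22), Acvr2b (2.09), Acvr1b (1.88), Tgfbr1 (1.32), Fst (2.49) and Smad3 (2.66) were also higher in muscle. Fstl3 (-1.73) and Smad7 (-0.93) were lower in muscle. Smad2 was the member that did not pass, at -0.15 (95% interval -0.35 to 0.05), although with library totals as the scale it was -0.79 and passed, while the median of all genes moved by -0.64. It also passed without heart control library 1, at -0.24 (edgeR adjusted p = 0.0353). The per-length order in control hearts differed from that of muscle: Smad3 (4.74 ± 0.9754 FPKM), Acvr2a (4.70 ± 0.285), Acvr1b (4.66 ± 0.381) and Smad7 (4.07 ± 0.945) overlapped at the top, and Mstn was last at 0.137 ± 0.0985 FPKM. FPKM were compared only within a tissue, since the heart table's values for a given count, length and library total are lower by a factor of 1.66.

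Whether the muscle and heart responses differed was tested directly. For KPC against control the difference between muscle and heart passed for 2 members, Acvr1b (1.68 on the log2 scale, edgeR adjusted p = 0.00138) and Acvr2a (0.67, edgeR adjusted p = 0.0465), against 25.8% of all genes. For KPC+GnP against KPC it passed for 4, against 25.7% of all genes. These were Mstn (-2.96, edgeR adjusted p = 0.00537), Acvr1b (-1.31, edgeR adjusted p = 0.00427), Smad7 (-1.30, edgeR adjusted p = 0.00802) and Tgfbr1 (-0.72, edgeR adjusted p = 0.0449). The Acvr2a call was lost in 16 of 24 fits that left out 1 library, and that of Tgfbr1 in 17 of 24. Mstn passed the filter of this fit through muscle, but the heart side of its value, a log2 difference of 1.70 in the fit of hearts, comes from 8 to 22 counts in KPC+GnP hearts and 2 to 8 in KPC hearts. Smad3 did not pass with all libraries, at -1.16 for KPC against control (edgeR adjusted p = 0.106) and 1.38 for KPC+GnP against KPC (edgeR adjusted p = 0.0592). Without KPC muscle library 1 it passed in both, at -2.19 (edgeR adjusted p = 7.14e-07) and 2.40 (edgeR adjusted p = 2.25e-07), and with library totals it also passed in both, at -1.49 and 1.67. Without that library 5 members passed for KPC against control, with Mstn, Tgfbr1 and Smad3 added, and 5 for KPC+GnP against KPC, with Smad3 added. All genes called also rose without it, from 3747 to 5804 in the first contrast and from 3725 to 5694 in the second. Mstn did not pass with all libraries for KPC against control (1.77, edgeR adjusted p = 0.112), and was at 0.80 without heart control library 2. Fst did not pass with all libraries for KPC against control (-2.05, edgeR adjusted p = 0.0738), but did with library totals (-2.36, edgeR adjusted p = 0.0494) and without heart control library 2 or heart KPC library 3 or 4. With the animal as a block, which keeps only the 8 animals with both tissues, 0 members passed in either contrast, and 1 and 25 of all genes did. Acvr1b then had 1.32 and -0.54 in the first and second contrast, Mstn had 0.23 and -2.62, and Smad7 had -1.01 in the second.

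For each member that passed between KPC and control muscle, the 3 genes nearest in pattern were taken, by the root mean square difference of mean-centred log2 CPM over the 12 muscle libraries. Nearest to Mstn were H6pd (0.197), an enzyme of NADPH supply in the endoplasmic reticulum, Musk (0.217), the receptor kinase of the neuromuscular junction, and Rbm3 (0.230), a cold-inducible RNA-binding protein. Acvr1b lay nearest to Cacnb4 (0.2005), a calcium channel subunit, Ip6k3 (0.218), an inositol phosphate kinase, and Cry2 (0.225), a repressor of the circadian clock. For Smad3 they were Map2k6 (0.172), a kinase that activates p38, Faap100 (0.184) and Emid1 (0.193). Tgfbr1 lay nearest to Ufl1 (0.0644), Riok2 (0.0770) and Serinc1 (0.0833). Fst lay nearest to Pcsk5 (0.215), Mansc1 (0.235) and Cpxm2 (0.243), and Smad7 to Ctla2b (0.181), Bri3 (0.183) and Dnal4 (0.185). The distances are not scaled to a gene's own spread, an SD of 0.501 for Tgfbr1 and 1.20 for Smad3. They therefore do not rank the members by how close their neighbours are.

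Around the members, 60 of 65 other genes of the TGF-beta family and its Smads were in the tables, in 6 lists. In KPC against control muscle 30 of 57 tested passed, 10 higher and 20 lower, beside 49.7% of all genes, 27.5% higher and 22.1% lower. The median log2 difference was -0.37, against -0.00263 over all genes. In KPC+GnP against KPC muscle 32 passed, 23 higher and 9 lower, beside 49.8% of all genes, 23.1% higher and 26.7% lower, and in KPC+GnP against control muscle 0 did. Without KPC library 1, an alternative chosen after seeing the data, 35 of 58 passed in KPC against control muscle and 38 in KPC+GnP against KPC muscle, and 28 and 31 of these genes passed both with and without the library. All genes called without it also rose, from 6336 to 7993 (KPC against control) and from 6357 to 8056 (KPC+GnP against KPC). The counts of each muscle list below stand against the shares of all genes given for all libraries. Smad6 and Skil stand in 2 lists each.

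Among the ligands 7 of 11 passed in KPC against control muscle, 1 higher and 6 lower. Inhbb, which encodes a subunit of activin B, rose to 8.32 ± 6.90 CPM in KPC muscle, against 0.885 ± 0.260 CPM in control muscle (SD, n = 4 each), with an edgeR adjusted p of 0.00105. Gdf11, the closest relative of Mstn, fell to 1.62 ± 1.13 CPM in KPC muscle, against 7.04 ± 1.03 CPM in control muscle, with an edgeR adjusted p of 0.000646. Bmp5 and Bmp2, ligands of the bone morphogenetic protein (BMP) branch, fell by 1.26 and 1.27 on the log2 scale. In KPC+GnP muscle these genes had 1.07 ± 0.245 (Inhbb) and 5.94 ± 0.558 CPM (Gdf11), with log2 differences from KPC muscle of -2.95 and 1.88, both called.

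Of the other receptors 5 of 10 passed in KPC against control muscle. Tgfbr3, a co-receptor also called betaglycan, rose by a log2 difference of 1.24, while the type I receptors of the BMP branch Acvr1, Acvrl1 and Bmpr1a fell by 0.68, 0.62 and 0.39. Of the other binders, latency proteins and proteases 6 of 13 passed, 2 higher and 4 lower. Furin, a protease that cleaves ligand precursors, rose to 86.5 ± 21.1 CPM in KPC muscle, against 49.5 ± 1.93 CPM in control muscle. Bmp1, which encodes a processing protease, fell by 2.11 on the log2 scale. Ltbp4, a latent TGF-beta binding protein, fell by 1.75 and Fstl1, a follistatin-like protein, by 2.44.

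Of the other Smads, co-repressors and ubiquitin ligases 7 of 12 passed, 4 higher and 3 lower. Smad4, the partner shared by all receptor-activated Smads, rose to 109 ± 22.7 CPM in KPC muscle, against 68.9 ± 4.69 CPM in control muscle. Tgif1, a co-repressor of Smad2 and Smad3, rose by a log2 difference of 2.31 and Nedd4l, a ubiquitin ligase, by 1.18, while the co-repressor Ski fell by 0.40. Of 8 genes known to be induced through Smad2 and Smad3, 3 passed, in both directions. Junb rose by a log2 difference of 0.89, while Ctgf fell by 0.93. Snai1 was at -1.13 without passing (edgeR adjusted p = 0.056). Of 5 genes induced through BMP Smads 3 passed, all lower: Id2 by 1.17, Id4 by 2.11 and Smad6 by 0.78 on the log2 scale. Id4 was scarce, at a mean of 0.144 CPM in KPC, 0.439 CPM in KPC+GnP and 0.636 CPM in control muscle. The size of its fall rests on low counts and is given as a description. Id3 was at -0.57 (edgeR adjusted p = 0.105).

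In heart 11 of 58 tested passed in KPC against control mice, 7 higher and 4 lower, then 2 in KPC+GnP against KPC (Tgfb3, 0.89, and Bmp5, 1.94, both higher) and 1 in KPC+GnP against control (Id1, 0.61, higher). Of all genes 9.34%, 1.55% and 1.23% passed in these comparisons. Junb (2.06), Tgfbi (1.46) and Id1 (0.67) rose in KPC hearts by these log2 differences, as did the type II receptor gene Tgfbr2 (0.82), the BMP binder Chrd (0.90) and the proteoglycan gene Dcn (1.06), which is also 1 of the fibroblast markers. Bmp5 (-1.42), Tgfb3 (-0.53), Smurf1 (-0.44) and Zfyve9 (-0.40) fell there. The groups overlapped for Junb, Tgfbi, Tgfbr2 and Dcn, and did not for Id1, Chrd, Bmp5, Tgfb3, Smurf1 and Zfyve9. The edgeR adjusted p of these genes ran from 0.0179 (Id1) to 0.0494 (Dcn). With 1 library left out, 104 to 3554 of all genes passed in this comparison. Id2 (1.23, edgeR adjusted p = 0.15) and Tgfbr3 (0.47, edgeR adjusted p = 0.0859) did not pass.

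**Figure D5:**
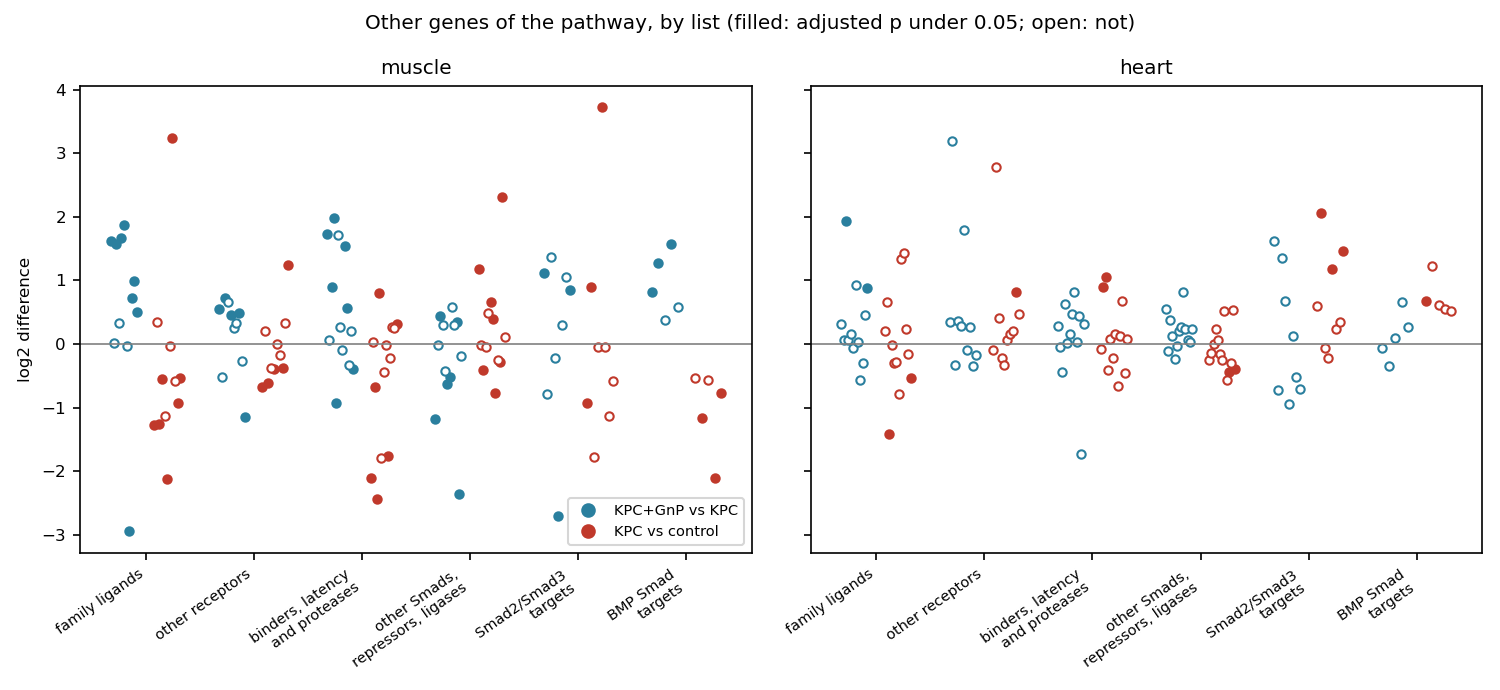
Log2 differences of the other pathway genes in 6 lists, in muscle (left) and heart (right), for KPC+GnP vs KPC and KPC vs control; each point is a gene, filled where the adjusted p was under 0.05. In muscle 23 of the 32 called genes lie above 0 for KPC+GnP vs KPC, while 20 of the 30 for KPC vs control lie below it; Smad6 and Skil are drawn in 2 lists.

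Markers of other cell types moved along with these comparisons, and their part in the results was not tested. Of 10 fibroblast markers 9 were lower in KPC than in control muscle, with a summed level of 566 to 1043 CPM in KPC+GnP, 237 to 370 in KPC and 689 to 1821 CPM in control muscle. All 6 tendon markers were lower in KPC muscle, at sums of 148 to 188 CPM in KPC+GnP, 19.0 to 75.0 in KPC and 128 to 289.9 CPM in control muscle. Satellite cell markers were lower for 3 of 5, endothelial for 3 of 8, macrophage for 3 of 10 and smooth muscle or pericyte markers for 6 of 8, with 1 of the last higher and their sum at 3141 to 3470.2 CPM in KPC+GnP, 4555 to 4923 in KPC and 3246 to 3317 CPM in control muscle. Of the 8 skeletal muscle markers 1 was higher and none lower in KPC muscle. These values stand beside the lower Fst and Smad3 and the lower pathway genes of KPC muscle. Between KPC+GnP and KPC muscle 9 fibroblast, 6 tendon, 3 satellite cell, 6 macrophage and 3 endothelial markers were higher with none lower, and of the smooth muscle or pericyte markers 6 were higher and 1 lower. Heart muscle markers in muscle summed to 132 to 322 CPM in KPC+GnP muscle, to 304, 24.6, 43.0 and 29.4 CPM in KPC libraries 1 to 4 and to 228 to 411 CPM in control muscle, so that KPC libraries 2 to 4 were low and library 1 was not, as for Smad3. Of these 8 markers 3 could be tested in muscle and none passed. In KPC hearts 6 of 10 macrophage markers were higher, at sums of 445 to 2736 CPM against 361 to 629.6 CPM in control hearts, and so were all 4 neutrophil markers tested. In KPC+GnP hearts, beside the Smad7 values, 4 of 6 brown fat markers were higher than in KPC and than in control hearts, at sums of 535 to 2897 CPM in KPC+GnP, 960 to 1330 in KPC and 575 to 1019.6 CPM in control hearts. The 2 erythroid markers in the tables summed to 363 to 2937 CPM in KPC+GnP, 91.8 to 1186 in KPC and 38.4 to 202 CPM in control hearts.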

How the data were processed

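RNA from muscle and heart was sequenced as paired reads of mRNA libraries, per the labels' protocols. The authors deposited raw counts per gene and log2 FPKM for each tissue. The submitters' processing notes name FastQC 0.11.5, STAR 2.5, Subread 1.5.1 with featureCounts, edgeR 3.12.1 and build mm10, while which tool did what, which genes were annotated and whether strand was used in counting were not stated there. The count tables served every test and the CPM. The deposited log2 FPKM served 1 alternative and levels between genes within a tissue only, since a given count yields values lower by a factor of 1.66 in the heart table.

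Genes passed filterByExpr (at least 10 counts, total at least 15), counts were scaled by TMM, and each tissue's 3 groups were fitted together with the quasi-likelihood test of edgeR 4.0.16 in R 4.3.3, with Benjamini-Hochberg adjustment over all genes tested (12760 in muscle, 13846 in heart, 14509 in the fit of both tissues) and a threshold of 0.05. Log2 CPM used a prior count of 2. The procedure was tested on simulated data. Alternatives were library totals, DESeq2 size factors, no filter, DESeq2 1.42.0, limma 3.58.1 on log2 FPKM, fits of only the 2 groups compared, each library left out in turn, and the animal as block for the tissue contrasts. The animal numbers pair muscle and heart for 8 animals, and deviations from the group means in the 2 tissues of an animal had r of -0.281 to 0.281 across 12390 genes, which are not independent. The members, pathway lists and marker lists were chosen with earlier results of these data known. The text names all members, of each pathway list the 4 genes with the smallest p in KPC against control muscle and the 2 in heart, and 3 genes nearest in pattern to each member called there. Of these, 1 pathway gene is not reported here. Gene positions are from GENCODE M21 on GRCm38, the assembly of mm10, and promoters from RefSeq on GRCm38.p6. Each library comes from a separate numbered animal within its group. The 95% intervals are for fitted log2 differences and rest on the variation between these libraries, but do not give their range. Each SE is the size of the log2 difference divided by the square root of its quasi-likelihood F, whose variance estimate also draws on other genes.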

Additional observations from a re-analysis of the deposited data

Results flagged for a closer look

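Among 60 sets of 4 libraries (10 genes, 3 groups, 2 tissues), 3 had a library far from the others of its set, and chance flags about 1 set in 20. Smad3 was at 89.3 CPM in KPC muscle library 1, from animal 141, against 14.8 to 20.8 CPM in the other KPC muscle libraries. Smad7 was at 22.0 CPM in KPC heart library 2, against 29.7 to 30.2 CPM in the other KPC hearts. Acvr2a was at 39.4 CPM in control muscle library 3, against 48.8 to 50.2 CPM in the other controls.

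The muscle and heart responses differed for 5 members by the direct edgeR test of muscle minus heart. Of all genes, 25.8% passed this test for KPC against control and 25.7% for KPC+GnP against KPC. For KPC against control the difference on the log2 scale was 0.67 for Acvr2a and 1.68 for Acvr1b. For KPC+GnP against KPC it was -2.96 for Mstn, -1.31 for Acvr1b, -0.72 for Tgfbr1 and -1.30 for Smad7. The heart side of the Mstn value comes from 8 to 22 counts per library in KPC+GnP hearts and 2 to 8 in KPC hearts. The Acvr2a call was lost in 16 of 24 fits that left out 1 library, and that of Tgfbr1 in 17 of 24. None of the 5 members passed in these contrasts with the animal as a block.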

How the results depend on the processing

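Of 1919 member values under alternatives, 1823 kept their direction and their side of the threshold, 66 lost a call, 30 gained one and no called value changed sign, while 47 values below the threshold in both settings did. In muscle the members called stayed at 5 to 7 (KPC against control) and 4 to 6 (KPC+GnP against KPC) as 1 library was left out, and all genes called at 5137 to 7993 and 5169 to 8056. For KPC+GnP against control muscle DESeq2 called 1 gene.

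Heart counts depended on the setting, and the cause was not tested. DESeq2 called 1 member in each heart comparison, and 2499 genes (KPC against control), 1136 (KPC+GnP against KPC) and 1056 (KPC+GnP against control). Log2 FPKM with limma gave 88 genes for KPC+GnP against KPC and 86 for KPC+GnP against control. Fits of only the 2 groups gave 229 genes for KPC against control, 3 for KPC+GnP against KPC, and 918 with 1 member for KPC+GnP against control. For KPC+GnP against control hearts library totals gave 1 member and 374 genes, and DESeq2 size factors 1 member. With 1 library left out, KPC against control hearts had 0 to 1 members and 104 to 3554 genes, KPC+GnP against KPC hearts 0 to 1192 genes, and KPC+GnP against control hearts 0 to 1 members and 1 to 612 genes. The highest 3554 and 1192 came without heart KPC library 4, from animal 141.

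For muscle minus heart, KPC against control, DESeq2 called 4 members, and with 1 library left out 1 to 5 members and 2677 to 5804 genes passed. For KPC+GnP against KPC the genes numbered 2867 to 5694 with 1 library left out. With the animal as replicate block 0 members passed in both contrasts, with 1 gene and 25 genes, and 9 members still passed between muscle and heart of controls. This block keeps 8 animals, so fewer samples enter. Scaling by library totals moved the median of all genes by -0.16 (KPC against control muscle), 0.25 (KPC+GnP against KPC muscle) and 0.15 (KPC against control hearts). Low counts limit Mstn in heart, and Fstl3 and the pathway gene Id4 in muscle. Groups of a tissue hold different animals, so no pairing exists within a tissue.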
